A study of Mus musculus with 56 samples.

Results

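The aldehyde dehydrogenases are a superfamily of NAD(P)-dependent enzymes that oxidise aldehydes to carboxylic acids. The mRNA levels of 10 members, Aldh1a1, Aldh1a2, Aldh1a3, Aldh1a7, Aldh1b1, Aldh1l1, Aldh2, Aldh3a1, Aldh3a2 and Aldh3b1, were followed here out of 20018 genes with a named probe on the array. Members were found by matching the RefSeq accession of each array probe to a gene symbol, and where a gene had more than 1 probe (Aldh3a1 only) the probe with the highest mean Cy5 signal was used. Male Muta™Mouse, a transgenic mouse line made for mutation assays, were about 14 weeks old and were dosed by daily oral gavage over 28 days. The agent was chrysene, which belongs to the polycyclic aromatic hydrocarbons, and the vehicle was olive oil. All groups, controls included, therefore shared the transgenic strain, the gavage and the oil, and tissue was taken 72 h after the last dose. The groups were olive oil alone (D0, 0 mg/kg bw/day) and chrysene at 17.5 (D1), 50 (D2) or 150 (D3) mg/kg bw/day. From the lowest dose to the highest, lung was measured in 5, 5, 3 and 5 mice, and liver as well as forestomach in 5, 5, 4 and 5, which made 56 arrays, each of 1 tissue of 1 mouse. Every array compared the sample RNA (Cy5 dye) with a common reference RNA from mouse cell lines (Cy3 dye), so a level below is the log2 of sample over reference for that probe, and levels of different genes cannot be set against each other.

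The family divides by substrate. Aldh1a1, Aldh1a2 and Aldh1a3 make retinoic acid from retinaldehyde, which is the signal for the retinoic acid receptors in development and in epithelia. Aldh1a7 is a rodent neighbour and close relative of Aldh1a1. Aldh2 and Aldh1b1 are mitochondrial enzymes that clear acetaldehyde, among other aldehydes, and Aldh1l1 is the cytosolic enzyme that oxidises 10-formyltetrahydrofolate in one-carbon metabolism. The Aldh3 enzymes handle larger aldehydes: Aldh3a1 is abundant in cornea and in stratified epithelium of the upper digestive tract, Aldh3a2 oxidises fatty aldehydes, and Aldh3b1 oxidises aldehydes of lipid peroxidation. Polycyclic aromatic hydrocarbons can activate the aryl hydrocarbon receptor (AhR), whose gene battery classically includes Aldh3a1 next to the Cyp1 enzymes and Nqo1, and this is the background against which the family is read in an exposure study.

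The upstream sequences of 4 members are shown because their values come up below: Aldh1a2 and Aldh3a2 carried the smallest unadjusted p-values with chrysene in lung, and Aldh1a1 and Aldh1a7 are neighbours on chromosome 19 with related upstream sequence. RefSeq promoter windows on GRCm38.p6 ran from 250 bases before a start site to 50 bases after it and were matched for 7 of the 10 members, with 2 start sites for Aldh1a1. The 250 bases before the start site are printed 5′ to 3′ on the strand of the gene. They lie at chr9:71215539-71215788 on the plus strand (Aldh1a2), chr11:61267187-61267436 on the minus strand (Aldh3a2), chr19:20601718-20601967 on the plus strand (the second Aldh1a1 start site) and chr19:20727557-20727806 on the minus strand (Aldh1a7). Capitals mark matches, on either strand, to the core of the AhR response element or to that of the antioxidant response element. The AhR core was searched as GCGTG, which on the opposite strand reads CACGC. The antioxidant core was searched as TGACNNNGC, which on the opposite strand reads GCNNNGTCA.
Aldh1a2: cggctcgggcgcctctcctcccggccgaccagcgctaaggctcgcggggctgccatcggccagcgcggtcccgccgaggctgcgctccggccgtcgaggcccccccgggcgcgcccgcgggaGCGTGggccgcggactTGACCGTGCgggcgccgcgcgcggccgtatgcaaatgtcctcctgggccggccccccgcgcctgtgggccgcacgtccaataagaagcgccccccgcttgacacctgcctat
Aldh3a2: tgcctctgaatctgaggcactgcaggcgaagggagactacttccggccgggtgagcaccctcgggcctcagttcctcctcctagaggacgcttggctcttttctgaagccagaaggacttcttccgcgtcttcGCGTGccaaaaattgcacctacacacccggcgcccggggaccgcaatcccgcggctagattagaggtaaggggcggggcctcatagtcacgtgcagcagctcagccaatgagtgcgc
Aldh1a1: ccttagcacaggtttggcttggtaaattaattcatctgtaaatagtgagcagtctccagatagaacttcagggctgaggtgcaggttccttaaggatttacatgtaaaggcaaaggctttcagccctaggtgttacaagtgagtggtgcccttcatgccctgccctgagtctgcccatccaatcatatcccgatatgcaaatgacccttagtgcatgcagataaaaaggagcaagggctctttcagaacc
Aldh1a7: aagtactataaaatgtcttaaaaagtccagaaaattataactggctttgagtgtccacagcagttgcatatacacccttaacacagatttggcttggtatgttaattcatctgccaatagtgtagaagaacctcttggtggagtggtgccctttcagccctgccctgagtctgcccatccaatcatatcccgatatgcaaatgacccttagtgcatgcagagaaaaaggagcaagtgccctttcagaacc

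Counted from the start site, the Aldh1a2 window held the AhR core at -128 and the antioxidant core at -112, and the Aldh3a2 window held the AhR core at -117. Neither core was found in the windows of Aldh1a1, Aldh1a7, Aldh1b1, Aldh1l1 or Aldh3b1. Among 32851 RefSeq promoter windows of the same length, 32.4% held the AhR core and 12.4% the antioxidant core, so a match is common and is given as a description only. The Aldh1a2 window was rich in G and C (78%, with 50 CpG pairs), against 61.7% for Aldh3a2 and a median of 52.7% over all windows. The second Aldh1a1 window aligned with the Aldh1a7 window at 70.4% identity (224 of 318 aligned positions), and the first Aldh1a1 window (chr19:20492333-20492632) at 50.6%. The Aldh1a1 and Aldh1a7 genes lie at chr19:20492583-20643463 and chr19:20692953-20727556, Aldh3a1 and Aldh3a2 are neighbours at chr11:61208510-61218418 and chr11:61223417-61267528, and Aldh1a2 lies at chr9:71215789-71296243. Whether the Aldh1a1 and Aldh1a7 probes also bind the mRNA of the other gene was not tested.

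Markers of the labelled tissue were high on every array. The mean log2 ratio of hepatocyte genes was 6.70 to 7.06 in liver and at most 2.72 elsewhere, that of alveolar type 2 genes was 6.31 to 6.84 in lung and at most 0.66 elsewhere, and that of keratinocyte genes was 3.84 to 6.10 in forestomach and at most 2.78 elsewhere. The share of probes with a Cy5 signal well above the local background was 47.6 to 55.2% per array in lung and 33.2 to 45.2% in liver, but 18.1 to 50.2% in forestomach, where it differed by slide. Each slide carried a single tissue, so slide and tissue cannot be fully told apart. In lung, mice 17 and 19 (both D3) stood apart from the other arrays, with a skeletal muscle list at 5.92 and 6.15 against -0.82 to 0.22 on the other 16 lung arrays, and the lung D3 values of the members are also given without them. In forestomach, the glandular stomach list (8 of 9 genes on the array) ran from 0.31 to 6.80 with 2 to 8 genes above background, at 1.16, 6.65, 5.86, 0.65 and 5.66 in vehicle mice 1 to 5, and the pancreatic acinar list reached 5.26 in mouse 19 of D3. Comparisons with forestomach were therefore also run without vehicle mice 2, 3 and 5 and D3 mouse 19, the arrays of those groups with a glandular list above 5, which leaves 2 vehicle mice. The part of glandular stomach in the values was not tested further. The arrays were of bulk tissue, where fewer cells of a type and less RNA per cell cannot be told apart.

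Before any exposure was considered, the vehicle-treated mice showed a strong division of the family between tissues. Liver held the highest levels of Aldh1b1, Aldh1l1 and Aldh2 and the lowest of Aldh3a1 and Aldh1a2, whereas lung held the highest of Aldh3b1. Aldh3a1 was highest in forestomach, although under median centring of the arrays its lung and forestomach levels were alike (difference 0.06). A member was called where the Benjamini-Hochberg adjusted p of limma's moderated test was at most 0.05 and the levels differed at least 1.5-fold. By that rule 7 of 10 members differed between liver and lung (4 higher and 3 lower in liver), 8 of 10 between liver and forestomach (5 higher and 3 lower in liver) and 6 of 10 between lung and forestomach (3 higher and 3 lower in lung). Aldh1a2 and Aldh1a3 did not pass the signal filter in liver and entered the liver comparisons only through the tissue where they are high, so over the 8 members measured in both tissues the counts were 6 for liver against lung (4 higher and 2 lower) and 6 for liver against forestomach (5 higher and 1 lower). Without the forestomach arrays of high glandular list the counts over 10 members were 8 against liver and 6 against lung, but not of the same genes, as given below. Tissues differ for many genes, and the shares of all tested probes called in these comparisons were 46%, 41% and 37.6%, and nothing particular to the family is read from the counts. The median difference of the members was 0.10, 0.47 and 0.05 on the log2 scale, against -0.03, -0.04 and 0.00 over all probes. Because mRNA of very different tissues was compared, the scaling matters: under plain median centring of each array, in place of the intensity-dependent LOWESS of the deposited values, the median of all tested probes moved to -0.62 for liver against lung, 0.17 for liver against forestomach and 0.95 for lung against forestomach. The members called were then 5 (2 higher and 3 lower in liver than in lung), 6 (4 higher and 2 lower in liver than in forestomach) and 6 (6 higher and 0 lower in lung than in forestomach), of which 5, 6 and 3 were also called with the deposited values. For lung against forestomach the 3 lower calls, Aldh1a3, Aldh1l1 and Aldh3a1, were lost, and Aldh1a2, Aldh1a7 and Aldh3a2 were called higher.

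**Figure D1:**
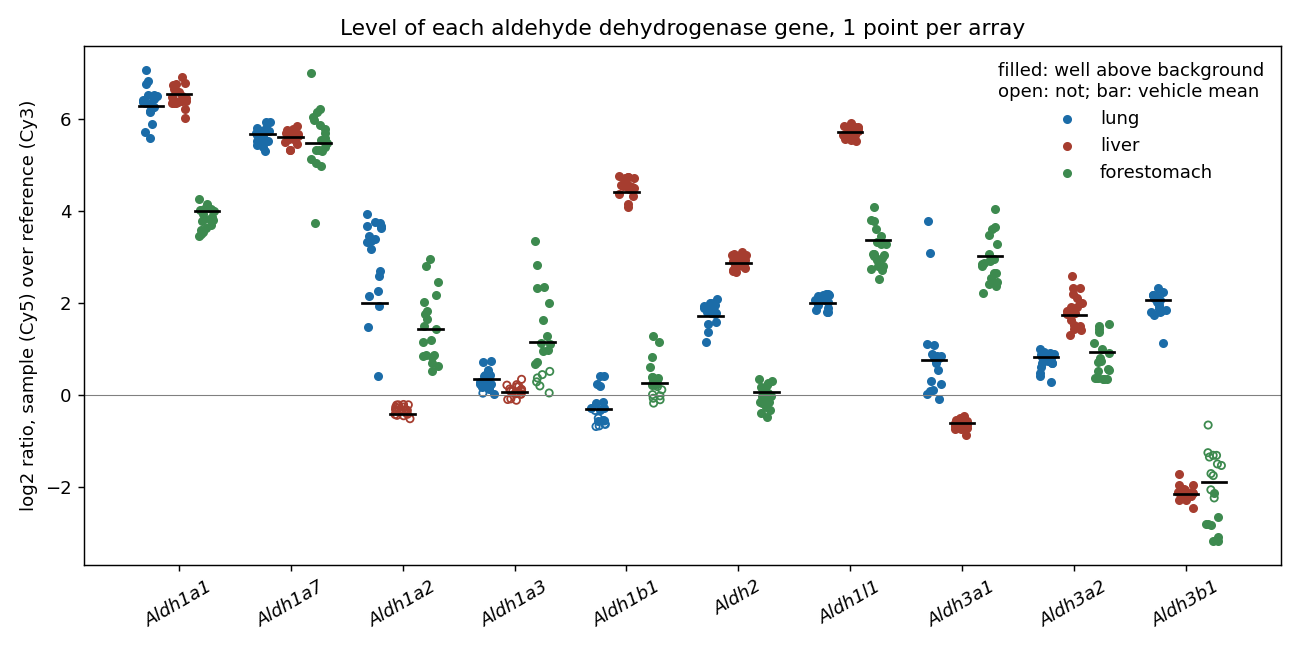
Log2 ratio of sample over reference (vertical axis) for the 10 aldehyde dehydrogenases in lung, liver and forestomach. Each point is 1 array of all dose groups, filled where the Cy5 signal was well above background and open where it was not, and each bar is the mean of the 5 vehicle-treated mice. Aldh1b1 sits between 4.08 and 4.77 in all liver arrays and at or below 1.28 in the other tissues, and Aldh3b1 sits at 1.14 or above in all lung arrays and at -0.65 or below in the others.

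Among the retinaldehyde dehydrogenases, Aldh1a1 was high in lung and liver. In the lungs of vehicle mice 1 to 5 its log2 ratio was 6.17, 6.54, 6.42, 6.52 and 5.73, in their livers 6.73, 6.35, 6.46, 6.45 and 6.76, and in their forestomachs 3.88, 4.25, 3.81, 3.99 and 4.05. All lung and liver values lay above all forestomach values, while the ranges of lung and liver overlapped. Liver exceeded forestomach by 2.55 (SE 0.17, 5.87-fold, adjusted p = 4.11e-18) and lung exceeded it by 2.28 (SE 0.17, 4.85-fold, adjusted p = 5.13e-16), differences that median centring raised to 4.00 and 4.35, or 3.83 and 3.39 relative to all probes. The difference between liver and lung, 0.27 (SE 0.17, adjusted p = 0.154), was not called and was -0.34 under median centring, or 0.28 relative to all probes.

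Aldh1a2 was a gene of lung and forestomach. It was not well above background on any of the 19 liver arrays, where it has only an upper bound, and it was well above background on all 18 lung and all 19 forestomach arrays. Its vehicle values scattered widely in both: in lung they were 3.63, 0.42, 1.48, 1.95 and 2.59, and in forestomach 0.85, 2.02, 0.63, 0.84 and 2.82. Taken against the dim liver signal, the ratio differed between liver and lung by -2.42 (SE 0.40, adjusted p = 5.90e-07), so that lung was at least 5.36-fold higher. Between liver and forestomach it differed by -1.84 (SE 0.40, adjusted p = 8.31e-05), so that forestomach was at least 3.57-fold higher on the scale of the deposited values. That bound does not hold under other settings, since the log2 difference was -1.14 under median centring (adjusted p = 0.0936) and -1.25 without the arrays of high glandular list. With liver at its bound on the normalized Cy5 scale the folds were 6.57 and 3.96, and the smaller of each pair is given. The probe passed the filter through lung and forestomach only, so these p-values are not independent support for a difference. Lung and forestomach overlapped, with a difference of 0.58 (SE 0.40, adjusted p = 0.201) that was not called. That difference was called without lung mouse 2 (0.98, adjusted p = 0.0278), without forestomach mouse 5 (0.93, adjusted p = 0.0403), under median centring (1.53, adjusted p = 0.00892) and without the arrays of high glandular list (1.17, adjusted p = 0.0375). Relative to all probes the value under median centring was 0.58.

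Aldh1a3 was often near background. It was not well above background on any liver array, but was so on 17 of 18 lung and 13 of 19 forestomach arrays, and the reference RNA itself was above background for this probe on 17 of 56 arrays. Vehicle forestomach values were 2.34 and 2.01 in mice 2 and 5 and 0.45, 0.97 and 0.05 in mice 1, 3 and 4, of which mice 2, 3 and 5 had the high glandular stomach list, whereas vehicle lung values were 0.50, 0.24, 0.41, 0.03 and 0.56. Forestomach was at least 2.06-fold above liver, with 3 of its 5 arrays above background (adjusted p = 0.00832, and 0.0569 without forestomach mouse 2). The deviations of its forestomach values from the dose-group means had their highest r with those of the alveolar type 2 list (0.83), which stayed between -0.33 and 0.66 in forestomach, followed by the keratinocyte (0.77), hepatocyte (0.76), pancreatic acinar (0.76) and glandular stomach (0.75) lists, over 19 arrays. Without the arrays of high glandular list liver and forestomach differed by -0.17 (adjusted p = 0.706). Lung lay 1.76-fold below forestomach (log2 difference -0.81, SE 0.36, adjusted p = 0.0480), a direction that turned to 0.10 (adjusted p = 0.830) without the arrays of high glandular list. It was a call that 5 other alternative settings and 8 of 10 omissions of a single array removed. Without forestomach mouse 2, 3 or 5 the adjusted p was 0.219, 0.0513 and 0.164, and without lung mouse 1, 2, 3, 4 or 5 it was 0.0555, 0.0780, 0.0620, 0.0986 and 0.0511. Lung was above the liver bound by at least 1.20-fold, which was not called (adjusted p = 0.520).

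On the scale of the deposited values, Aldh1a7 was the member that differed least between tissues. Vehicle levels were 5.71, 5.81, 5.49, 5.94 and 5.44 in lung, 5.56, 5.70, 5.63, 5.62 and 5.54 in liver, and 5.86, 6.16, 3.75, 5.39 and 6.22 in forestomach. The liver values were the tightest, and forestomach mouse 3 was the only vehicle array below 5. No difference was called: liver against lung was -0.07 (SE 0.26, adjusted p = 0.834, with a sign that turned under both other LOESS settings), liver against forestomach 0.13 (SE 0.26, adjusted p = 0.667, or -0.017 without the arrays of high glandular list) and lung against forestomach 0.20 (SE 0.26, adjusted p = 0.519). Under median centring the last was 2.35 and called (adjusted p = 0.00429), or 1.40 relative to all probes.

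Of the mitochondrial enzymes, Aldh1b1 was high in liver and near background elsewhere. In liver of the vehicle mice it was 4.08, 4.57, 4.51, 4.57 and 4.37, and in lung -0.68, -0.63, -0.32, -0.28 and 0.41, of which 3 were well above background. In forestomach it was -0.01, 0.37, 0.19, -0.10 and 0.83, of which 2 were well above background. Liver was 26.4-fold above lung (log2 4.72, SE 0.21, adjusted p = 3.46e-25) and 17.9-fold above forestomach (4.16, SE 0.21, adjusted p = 7.24e-23), folds that rest on signals measured above background in 3 of 5 lung and 2 of 5 forestomach arrays. Under median centring the log2 differences were 3.05 and 3.01. The difference between lung and forestomach was -0.56 (SE 0.21, adjusted p = 0.0211), or 1.47-fold, and missed the fold limit. It was called without forestomach mouse 1 (-0.62), without forestomach mouse 4 (-0.64) and without lung mouse 5 (-0.73).

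Aldh2, the main acetaldehyde-clearing enzyme, was graded from liver through lung to forestomach with no overlap between the tissues of the vehicle mice. It was 3.04, 2.72, 2.81, 2.84 and 2.99 in liver, 1.58, 2.09, 1.94, 1.82 and 1.15 in lung and -0.11, -0.17, 0.31, 0.11 and 0.26 in forestomach. Liver exceeded forestomach by 2.80 (SE 0.14, 6.97-fold, adjusted p = 1.16e-23) and lung exceeded forestomach by 1.64 (SE 0.14, 3.11-fold, adjusted p = 1.26e-14). Median centring gave 4.33 and 3.88 for these, or 4.16 and 2.93 relative to all probes. Liver exceeded lung by 1.17 (SE 0.14, 2.24-fold, adjusted p = 1.73e-10), and this call was lost under median centring (0.44, adjusted p = 0.582), where the difference was 1.07 relative to all probes.

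Aldh1l1, the folate enzyme, was highest in liver in every vehicle mouse. Its values were 5.71, 5.78, 5.65, 5.68 and 5.82 in liver, 2.99, 3.81, 3.61, 3.04 and 3.46 in forestomach and 2.12, 1.82, 2.04, 2.18 and 1.89 in lung, with no overlap between tissues. Liver was 13.2-fold above lung (log2 3.72, SE 0.17, adjusted p = 5.86e-25) and 5.09-fold above forestomach (2.35, SE 0.17, adjusted p = 4.45e-17), and median centring moved the log2 differences to 2.46 and 3.42. Lung lay 2.59-fold below forestomach (log2 difference -1.37, SE 0.17, adjusted p = 1.24e-09), a direction that turned to 0.96 under median centring, where it equalled the shift of all probes to within 0.01.

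The Aldh3 genes split in opposite ways. Aldh3a1 was 2.66, 3.49, 3.07, 2.93 and 2.95 in vehicle forestomach, 0.32, 1.11, 0.69, 0.82 and 0.89 in lung and -0.53, -0.57, -0.66, -0.64 and -0.66 in liver, again without overlap. Liver lay 12.4-fold below forestomach (log2 -3.63, SE 0.39, adjusted p = 2.12e-11) and 2.60-fold below lung (-1.38, SE 0.39, adjusted p = 0.00178), or by log2 differences of -2.38 and -2.45 under median centring. Lung lay 4.76-fold below forestomach (-2.25, SE 0.39, adjusted p = 2.46e-06), although median centring brought that difference to 0.06, or -0.89 relative to all probes. The other Aldh3a1 probe on the array gave vehicle means in the same order, 2.34 in forestomach, 0.64 in lung and -1.17 in liver, and followed the one used with r = 0.985 over the 56 arrays.

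Aldh3b1 was the lung member of the subfamily. It was 2.06, 2.03, 2.24, 2.19 and 1.82 in vehicle lung and -2.45, -2.11, -2.21, -1.72 and -2.28 in liver, all well above background, and -1.49, -3.17, -1.31, -0.65 and -2.79 in forestomach, where only mice 2 and 5 were. Every lung value was above every value of the other tissues. Lung was 18.7-fold above liver (log2 of liver against lung -4.22, SE 0.32, adjusted p = 1.07e-16) and above forestomach by a fitted 15.5-fold (3.95, SE 0.32, adjusted p = 3.02e-15), where only 2 of 5 forestomach arrays were measured above background and those 2 read lowest. Under median centring these differences were -5.28 and 5.76, and without the arrays of high glandular list the latter was 3.14. Liver and forestomach differed by -0.27 (SE 0.32, adjusted p = 0.462), which was not called, became 0.48 under median centring, and was called without the arrays of high glandular list (-1.08, adjusted p = 0.00451), where neither remaining forestomach array was above background.

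Aldh3a2, the fatty aldehyde dehydrogenase, differed less. Vehicle values were 2.00, 1.31, 1.78, 1.63 and 2.00 in liver, 1.01, 0.87, 0.87, 0.75 and 0.69 in lung and 0.34, 1.5, 1.14, 0.35 and 1.36 in forestomach, so that liver was clear of lung but not of forestomach. Liver was above lung by 0.90 (SE 0.21, 1.87-fold, adjusted p = 0.000238), but the sign turned to -0.36 under median centring, or 0.26 relative to all probes. Liver was above forestomach by 0.80 (SE 0.21, 1.75-fold, adjusted p = 0.00109), a call lost under median centring (1.09, adjusted p = 0.107) and under normexp background correction (0.54, below the fold limit), and 1.40 without the arrays of high glandular list. Lung and forestomach differed by -0.10 (SE 0.21, adjusted p = 0.705), which median centring turned to 1.46 and the omission of the arrays of high glandular list to 0.49 (adjusted p = 0.07). Aldh3a2 and Aldh1l1 deviations in forestomach had r = 0.72 and 0.71 with the glandular stomach list, and 0.73 and 0.80 with the alveolar type 2 list.

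With chrysene, no member was called at any dose in any tissue. In lung, limma called 0 of 10 members at D1, D2 and D3 and 0 for the trend over the dose steps, where the shares of all probes called were 0%, 0%, 0.127% and 0.169%. In liver, where 8 of 10 members passed the filter (well above background on at least 3 arrays of the tissue), 0 were called at D1, D2, D3 and for the trend, as for all probes (0% each). In forestomach 0 of 10 were called at each dose and for the trend, against 0%, 0%, 0.00728% and 0.04% of all probes. At an unadjusted p of at most 0.05, lung had 1, 1, 2 and 2 members at D1, D2, D3 and for the trend, against 5.88%, 6.12%, 16.2% and 17.3% of all probes. Liver had 0, 0, 0 and 1, against 3.61%, 3.79%, 4.79% and 5.43%, and forestomach had 0 throughout, against 4.16%, 7.53%, 9.24% and 9.18%. The median D3 change of the members was 0.056 in lung, 0.011 in liver and -0.088 in forestomach, against -0.026, -0.0073 and -0.0015 over all probes. The p-values rest on the spread between separate mice, and groups of 3 to 5 mice leave the standard errors printed below as the measure of what could have been seen.

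**Figure D2:**
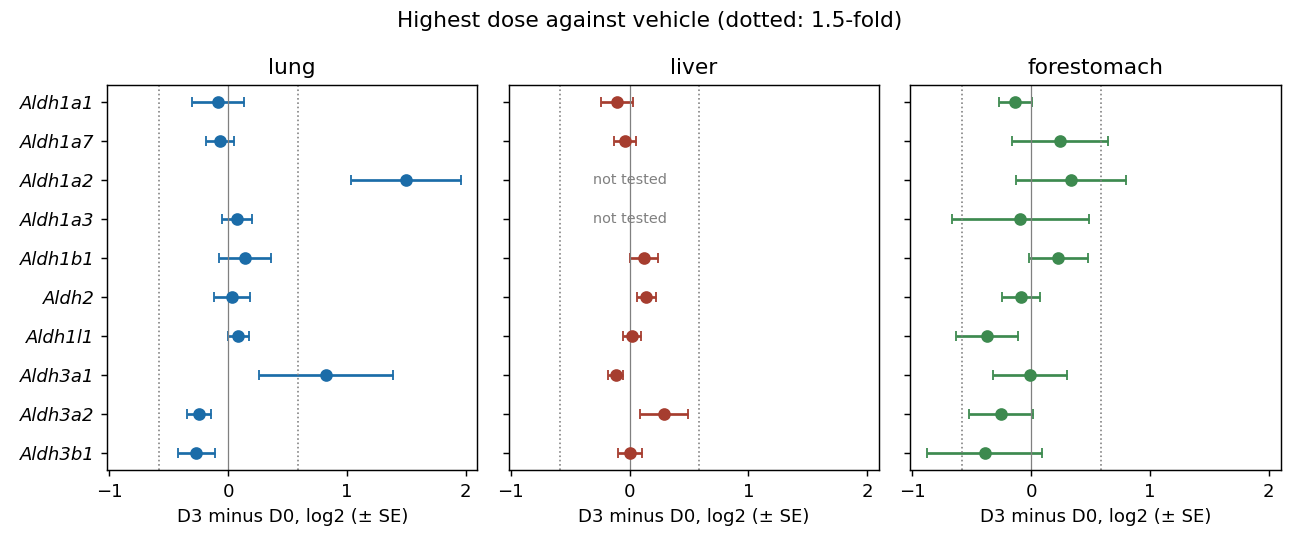
Difference in log2 ratio between 150 mg/kg bw/day chrysene (D3) and vehicle (D0) for each aldehyde dehydrogenase in lung, liver and forestomach, with its standard error, and dotted lines at a 1.5-fold change. Lung Aldh1a2 (1.49) and lung Aldh3a1 (0.83, or -0.41 without mice 17 and 19) lie beyond the dotted lines and neither was called; Aldh1a2 and Aldh1a3 were not tested in liver.

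Aldh1a2 in lung had the smallest p of the family. Lung values at D0 were 3.63, 0.42, 1.48, 1.95 and 2.59 in mice 1 to 5, at D1 3.68, 2.26, 2.16, 3.33 and 3.93 in mice 6 to 10, at D2 3.68, 3.36 and 2.70 in mice 12, 13 and 15, and at D3 3.40, 3.77, 3.74, 3.45 and 3.18 in mice 16 to 20. The treated mice lay between 2.16 and 3.93, and it was the vehicle mice that spread widely, mice 1 and 5 within the treated range and mice 2, 3 and 4 below all treated mice, so that the groups overlapped. The group means were 2.01 ± 1.20, 3.07 ± 0.82, 3.25 ± 0.50 and 3.51 ± 0.25 (SD, n = 5, 5, 3 and 5). D1 lay 1.06 above D0 (SE 0.46, unadjusted p = 0.0351, adjusted p = 0.833), D2 1.24 (SE 0.53, unadjusted p = 0.0332, adjusted p = 0.766) and D3 1.49 (SE 0.46, unadjusted p = 0.00479, adjusted p = 0.157). The two-sided exact permutation p for D3 was 0.0317, where the smallest that 252 splits of 5 against 5 mice allow is 0.00794. Over the dose steps the fitted D0-to-D3 change was 1.39 (SE 0.44, adjusted p = 0.133).

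The Aldh1a2 difference, which was not called, had the same sign within each slide and without mice 17 and 19. Within the 3 lung slides the D3 minus D0 difference was 1.75, 1.65 and 1.26, from 1 or 2 mice on each side. Without mice 17 and 19 it was 1.43 (adjusted p = 0.431), with D3 at 3.44 ± 0.28 (SD, n = 3), and over omission of each single array it ran from 1.10 without mouse 2 to 1.90 without mouse 1, with adjusted p-values of 0.260 and 0.0890. All lung vehicle arrays lay in column 1 of their slides and no treated array did, so column and treatment cannot be told apart in lung. Over the 18 lung arrays, deviations of Aldh1a2 from the dose-group means followed none of the 10 cell type lists closely (r between -0.22 and 0.16), and the genes whose deviations were most like it were Sfrp2 (r = 0.954), a secreted frizzled-related protein, and Upk3b (r = 0.948), a uroplakin of mesothelium and urothelium. These correlations share the same arrays and dye normalization and are descriptions.

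**Figure D3:**
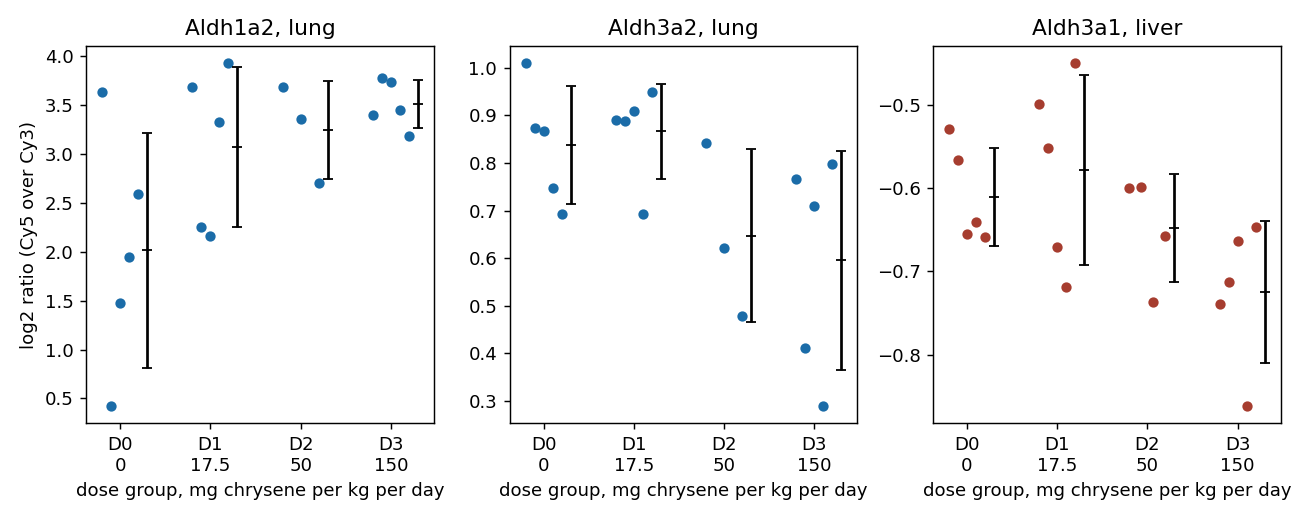
Log2 ratio (vertical axis) by chrysene dose for lung Aldh1a2, lung Aldh3a2 and liver Aldh3a1, the 3 combinations of gene and tissue with an unadjusted p of at most 0.05. Points are mice and bars are mean ± SD; the lung Aldh1a2 means run from 2.01 at D0 to 3.51 at D3 while the D0 mice span 0.42 to 3.63, and none of the 3 was called after adjustment.

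Aldh3a2, the fatty aldehyde dehydrogenase, had the next smallest p in lung, with a negative difference. Its values were 1.01, 0.87, 0.87, 0.75 and 0.69 at D0, 0.89, 0.89, 0.91, 0.69 and 0.95 at D1, 0.84, 0.62 and 0.48 at D2, and 0.77, 0.41, 0.71, 0.29 and 0.80 at D3. The lowest values, 0.41 and 0.29, were those of mice 17 and 19, and the remaining D3 mice lay within the D0 range. D3 minus D0 was -0.24 (SE 0.10, unadjusted p = 0.0292, adjusted p = 0.261), and the trend was -0.28 (SE 0.10, unadjusted p = 0.00994, adjusted p = 0.167). The exact permutation p for D3 was 0.0794. Without mice 17 and 19 the D3 difference was -0.08 (adjusted p = 0.810), and within the 3 slides it was -0.53, -0.25 and 0.00. Over the 18 lung arrays its deviations from the dose-group means ran against the skeletal muscle list (r = -0.76), the keratinocyte list (r = -0.74), the smooth muscle list (r = -0.72) and the adipocyte list (r = -0.68). The adipocyte list had medians of 1.71, 1.92, 2.73 and 3.54 from D0 to D3, with ranges that overlapped (0.94 to 3.36 at D0 and 1.75 to 5.23 at D3). The part of the cells behind these lists and of those 2 mice in the dose difference beyond these values was not tested.

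Aldh3a1, the classical AhR-battery member, stood high in the same lung D3 mice. Its lung values were 0.32, 1.11, 0.69, 0.82 and 0.89 at D0, 0.55, 0.82, 0.79, 0.24 and -0.09 at D1, 0.02, 0.85 and 1.09 at D2, and 0.86, 3.09, 0.09, 3.79 and 0.12 at D3. Mice 17 and 19 (3.09 and 3.79) stood more than 1.5 log2 units above every other lung array, and the other D3 mice did not exceed the highest D0 value. D3 minus D0 was 0.83 (SE 0.56, adjusted p = 0.492; exact permutation p = 0.421), and without mice 17 and 19 it was -0.41 (adjusted p = 0.629). On these 2 arrays the whole skeletal muscle list was up, with 7 of 7 genes well above background against 3 or 4 on the other lung arrays, and the keratinocyte list stood at 2.47 and 2.78 with 6 of 7 genes above background, against -0.31 to -0.11 with 3 or 4 elsewhere. Deviations of Aldh3a1 over the 18 lung arrays followed the skeletal muscle list (r = 0.93), the keratinocyte list (r = 0.93) and the smooth muscle list (r = 0.91), with mice 17 and 19 as the extreme points of each. The part of other tissue in the lung samples of these mice was not tested beyond these values.

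**Figure D4:**
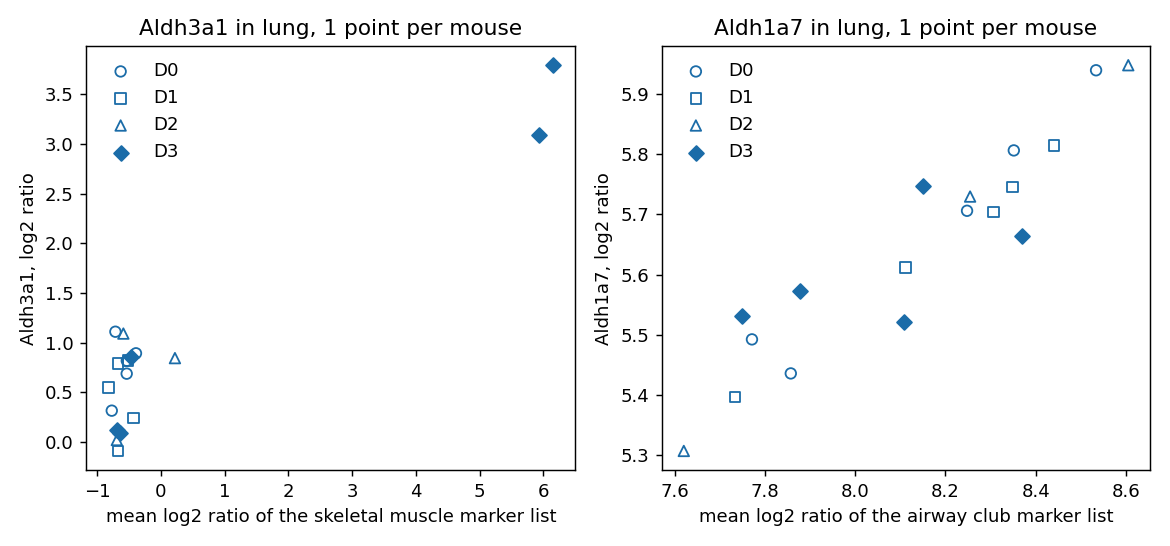
Lung arrays, with the log2 ratio of Aldh3a1 against the mean log2 ratio of the skeletal muscle list (left) and that of Aldh1a7 against the mean of the airway club list (right), 1 point per mouse, with marker shape by dose and D3 filled. Mice 17 and 19 of D3 lie at 5.92 and 6.15 on the muscle axis and 3.09 and 3.79 for Aldh3a1, apart from all others, whereas Aldh1a7 and the club list are high and low in the same mice (r of deviations 0.94).

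In liver, none of the 8 tested members was called. Aldh3a1 was -0.53, -0.57, -0.66, -0.64 and -0.66 at D0, -0.50, -0.55, -0.67, -0.72 and -0.45 at D1, -0.60, -0.60, -0.74 and -0.66 at D2, and -0.74, -0.71, -0.66, -0.86 and -0.65 at D3, so D3 and D0 overlapped narrowly. Its fitted trend was -0.12 (SE 0.06, unadjusted p = 0.0482, adjusted p = 0.917), and D3 minus D0 was -0.11 (SE 0.06, adjusted p = 1.00; exact permutation p = 0.0317). In fold terms the D3 difference was 1.08, under the 1.5-fold limit. The other liver D3 differences ran from -0.11 (Aldh1a1, SE 0.13) through -0.04 (Aldh1a7), 0.0014 (Aldh3b1), 0.02 (Aldh1l1), 0.12 (Aldh1b1) and 0.14 (Aldh2, SE 0.08) to 0.29 (Aldh3a2, SE 0.20), with adjusted p = 1.00 for each. Signs of the smallest, Aldh1a7, Aldh3b1 and Aldh1l1, turned under other scalings. Aldh2 had liver group means of 2.88, 2.83, 2.87 and 3.02 at D0, D1, D2 and D3 and SDs of 0.085 to 0.15.

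In forestomach the members named here had different means on the 3 slides, a difference that was not tested. The arrays lay on 3 slides of 7, 5 and 7 arrays, on which 39.0 to 50.2%, 23.5 to 33.4% and 18.1 to 28.7% of probes were well above background, and each slide held mice of all 4 groups. Aldh1a3 averaged 2.18, 0.73 and 0.62 on these slides, Aldh1a2 2.18, 1.42 and 0.85, and Aldh3b1 -2.92, -1.92 and -1.30, and Aldh3b1 was well above background on 7 of 7, 1 of 5 and 0 of 7 arrays. Thus Aldh3b1 read highest where it was not measurable above background, while the other members named were highest on the brightest slide. Aldh3a1 averaged 3.43, 2.65 and 2.66, Aldh1b1 0.66, 0.20 and 0.12, and Aldh1a7 6.10, 5.57 and 5.02. Forestomach vehicle mice 2 and 5, which held the high Aldh1a2 and Aldh1a3 values above, were both on the brightest slide, and both had the high glandular stomach list. So did mice 10, 12 and 19 of that slide, mouse 11 of the middle slide and mice 3, 8, 13 and 15 of the dimmest. Mice 6 and 20 of the brightest slide did not. The part of slide and that of glandular stomach in these means were not tested.

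**Figure D5:**
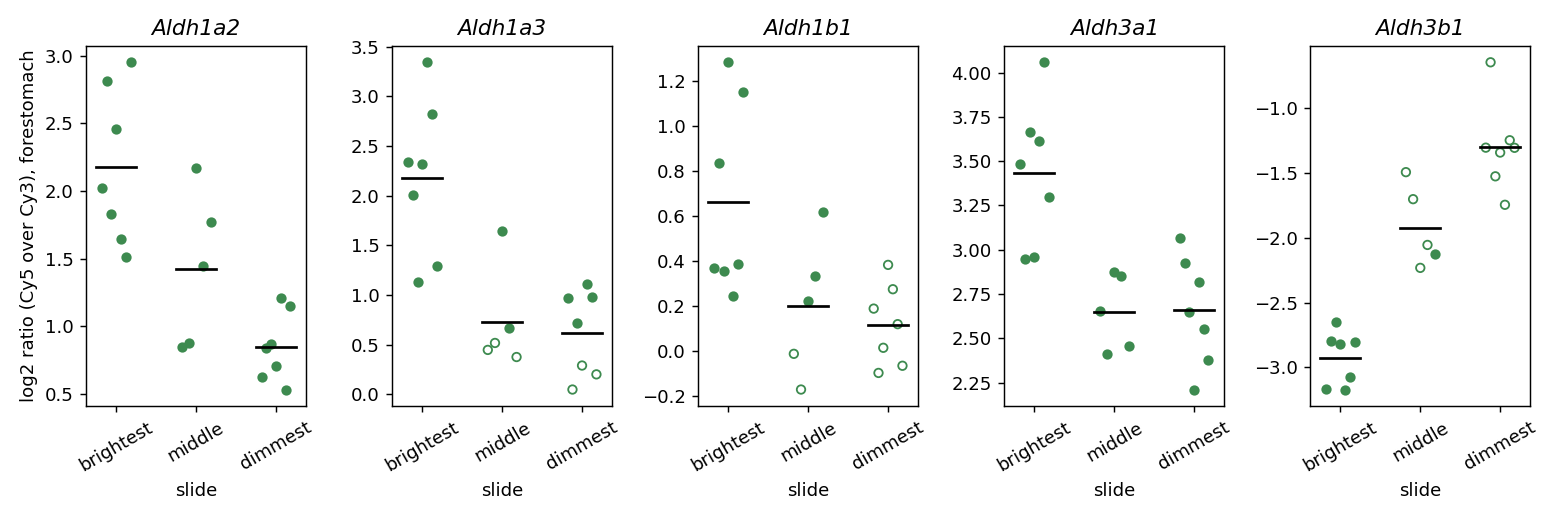
Forestomach log2 ratios (vertical axis) of Aldh1a2, Aldh1a3, Aldh1b1, Aldh3a1 and Aldh3b1 by slide, ordered from the slide with the largest to the one with the smallest share of probes well above background; points are arrays and bars are means. Aldh1a3 has a mean of 2.18 on the first slide and 0.62 on the last, and Aldh3b1 goes the other way, with -2.92 and -1.30.

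The forestomach D3 differences were not called. They were 0.34 (SE 0.46) for Aldh1a2, 0.25 (SE 0.40) for Aldh1a7, 0.23 (SE 0.25) for Aldh1b1, -0.25 (SE 0.27) for Aldh3a2, -0.37 (SE 0.26) for Aldh1l1 and -0.39 (SE 0.49) for Aldh3b1, with adjusted p-values of 0.736 or more over all 10 members. Aldh1a1 (-0.13), Aldh1a3 (-0.09), Aldh2 (-0.09) and Aldh3a1 (-0.0086) lay closer to 0, and apart from Aldh1a3 their signs turned under median centring, as did those of Aldh1l1 (0.15) and Aldh3b1 (0.08). The median of all probes was then 0.18, above the values of Aldh1l1 and Aldh3b1 but below those of Aldh1a1, Aldh2 and Aldh3a1. Without vehicle mice 2, 3 and 5 and D3 mouse 19 the differences of Aldh1a3 and Aldh3a2 turned to 0.39 and 0.15, those of Aldh1a2, Aldh1b1 and Aldh3b1 were 0.99, 0.56 and -1.003, and 0 of 10 members were called. Aldh3a1 in forestomach averaged 3.02 ± 0.30, 2.78 ± 0.57, 2.97 ± 0.45 and 3.01 ± 0.69 over D0, D1, D2 and D3 (SD, n = 5, 5, 4 and 5).

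The remaining lung members had similar means over the doses. Aldh1a1 averaged 6.28 ± 0.34, 6.43 ± 0.38, 6.56 ± 0.47 and 6.19 ± 0.35 (SD, n = 5, 5, 3 and 5), Aldh2 1.72 ± 0.37, 1.87 ± 0.10, 1.90 ± 0.12 and 1.75 ± 0.28, and Aldh3b1 2.07 ± 0.16, 1.95 ± 0.18, 2.08 ± 0.26 and 1.80 ± 0.39. Aldh1a7 stayed between 5.31 and 5.95 on all 18 lung arrays, Aldh1l1 between 1.80 and 2.20, and Aldh1a3 between 0.03 and 0.74. D3 minus D0 was -0.08 (SE 0.22) for Aldh1a1, 0.08 (SE 0.13) for Aldh1a3, -0.07 (SE 0.12) for Aldh1a7, 0.14 (SE 0.22) for Aldh1b1, 0.09 (SE 0.09) for Aldh1l1, 0.04 (SE 0.15) for Aldh2 and -0.27 (SE 0.16) for Aldh3b1, none called (adjusted p of 0.417 or more). The sign for Aldh1a1 turned without mice 17 and 19 (0.06) and under median centring (0.14), that for Aldh1a7 turned under median centring (0.18), where the median of all probes was 0.11, and that for Aldh1a3 turned without mice 17 and 19 (-0.13). Without those mice the other differences were -0.09 for Aldh1a7, 0.0039 for Aldh1b1, 0.09 for Aldh1l1, 0.24 for Aldh2 and -0.10 for Aldh3b1, with adjusted p-values of 0.631 or more.

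Whether the D3 effect itself differed between tissues was tested with the interaction of tissue and dose. No member was called: 0 of 10 for liver against lung, liver against forestomach and lung against forestomach, where 0%, 0.0807% and 0.704% of all probes were. Before adjustment, p was 0.05 or less for 1, 0 and 1 members, against 5.23%, 9.95% and 12.9% of all probes. Both were Aldh1a2, whose D3 effect in lung exceeded that in forestomach by 1.16 (SE 0.56, unadjusted p = 0.0449, adjusted p = 0.371, or 0.51 without the arrays of high glandular list) as well as that in liver (liver minus lung -1.39, SE 0.56, unadjusted p = 0.0173, adjusted p = 0.806), the liver probe being not well above background.

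The members differed in how much they varied among mice of the same dose. In lung, the within-group SD of Aldh3a1 was 0.99, larger than that of 99.3% of tested probes, and that of Aldh1a2 was 0.81, larger than that of 98.9%. In liver, Aldh3a1 was among the steadiest probes (SD 0.08, larger than that of 5.75% of probes), whereas Aldh3a2 varied (SD 0.35, larger than that of 94.4%). Liver Aldh3a2 moved with liver Aldh1a1: the deviations of the pair from their group means had r = 0.909 over 19 arrays, and each was the gene most like the other among all those tested in liver. The next most like Aldh3a2 was Hadh (r = 0.901), an enzyme of mitochondrial fatty acid oxidation. Aldh1a7 deviations followed the airway club list, of which Scgb1a1 and Cyp2f2 were on the array, in lung (r = 0.94, 18 arrays) and in forestomach (r = 0.94, 19 arrays). The lists next in r were alveolar type 2 in lung (0.71), and cardiac muscle (0.86) and keratinocyte (0.74) in forestomach. Aldh1b1, well above background on 11 of 18 lung arrays, followed the cardiac muscle list in lung (r = 0.89), which ran from -0.14 to 4.42 there. It also followed the glandular stomach list (r = 0.86), with 0 to 3 of 8 genes above background in lung, and the adipocyte list (r = 0.67). Points of each such correlation share their arrays, slides and normalization.

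Over all 56 arrays, the genes most like a member were taken by Pearson r among 15735 genes, a measure that mostly reads the difference between tissues. Aldh1b1 was most like Apof (r = 0.990), Aldh1l1 most like Apol7a (0.992) and Aldh2 most like Pon1 (0.988), of which Apof and Pon1 are liver-made plasma proteins. Aldh3b1 was most like Napsa (r = 0.991), the napsin protease of alveolar type 2 cells, and Aldh3a1 was most like Tmprss13 (0.980) and the cornified envelope gene Cnfn (0.976). For Aldh1a1 the nearest was Cldn3 (r = 0.978), for Aldh1a2 Sulf1 (0.968), for Aldh1a3 Prima1 (0.945) and for Aldh1a7 Lrrc61 (0.685). Within lung, the deviations of Aldh1a7 were most like those of Cyp2f2 (r = 0.956), the club cell cytochrome P450, and those of Aldh3a1 most like Tmprss13 (0.981). In forestomach, Aldh3a1 deviations were most like those of Lor (r = 0.878), the loricrin of the cornified layer, and those of Aldh1a7 most like Slurp2 (0.986).

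The other genes of these pathways were counted by list. Of 11 further aldehyde dehydrogenases, 10 were on the array, and counts here are over genes that passed the signal filter in both tissues compared, to be read against the 46%, 41% and 37.6% of all probes called. In vehicle mice 8 of 8 were called higher in liver than in lung. Against forestomach, 7 of 8 were higher in liver and 1 lower, and between lung and forestomach 0 of 9 were higher in lung and 4 lower. Aldh8a1, which oxidises 9-cis-retinal and an intermediate of tryptophan breakdown, was 5.36 higher in liver than in lung, and Aldh4a1 of proline breakdown 3.94 higher, whereas Aldh3b2, not above background in vehicle liver or lung, was at least 14.7-fold higher in forestomach than in liver. The median difference was 3.35 for liver against lung, 2.57 for liver against forestomach and -0.04 for lung against forestomach, against the all-probe medians given above.

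The retinoic acid list showed its own division. Of 12 genes that passed in both liver and lung 5 were higher and 5 lower in liver, of 11 for liver against forestomach 3 were higher and 4 lower, and of 11 for lung against forestomach 5 were higher and 4 lower in lung. Rbp4, the retinol carrier made by hepatocytes, was 6.07 above lung and 7.39 above forestomach in liver. Crabp2, a retinoic acid binding protein of keratinocytes, was lower in lung than in forestomach (log2 difference -5.49), and Lrat, which stores retinol as esters and was not above background in vehicle forestomach, was at least 5.24-fold higher in lung. In lung at D3 limma called 0 of 12 tested (0.127% of all probes), and 5 had an unadjusted p of at most 0.05 (16.2% of all probes): Rdh10, which makes retinaldehyde, at -0.27 (adjusted p = 0.150), Crabp2 at 1.68 (adjusted p = 0.298), Dhrs9 at 0.42 (adjusted p = 0.247), Rarg at 0.21 (adjusted p = 0.226) and Crabp1 at -0.24 (adjusted p = 0.237). Without mice 17 and 19, which had the high keratinocyte list, these were -0.19, -0.16, 0.10, 0.17 and -0.09, so that Crabp2 turned its sign, and Lrat stood at 0.73 (adjusted p = 0.399).

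Among alcohol dehydrogenases and carbonyl reductases, which act on the same carbonyl compounds, 2 of 7 were higher and 3 lower in liver than in lung, 2 of 7 higher and 4 lower in liver than in forestomach, and 2 of 9 higher and 4 lower in lung than in forestomach. The last 4 included Adh7, which was not above background in vehicle lung. Adh4, not above background in vehicle lung, was at least 296-fold higher in liver, and Cbr3 was lower in liver than in forestomach (log2 difference -6.63). Of the folate genes, 4 of 8 were higher and 0 lower in liver than in lung, 4 of 8 higher and 2 lower in liver than in forestomach, and 1 of 8 higher and 5 lower in lung than in forestomach. The cytosolic serine hydroxymethyltransferase Shmt1 was 4.60 higher in liver than in lung, and Ftcd of histidine breakdown, not above background in vehicle lung, at least 87.0-fold higher in liver. No gene of these lists was called with chrysene at any dose or for the trend in any tissue.

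The AhR battery was measured in the same mice. Of 5 genes that passed the filter in both tissues, 0 were higher and 2 lower in liver than in lung and 0 higher and 3 lower in liver than in forestomach, and of 6, 1 was higher and 3 lower in lung than in forestomach. The 1 higher was Cyp1a1, not above background in vehicle forestomach. The 3 lower included Ahrr, not above background in vehicle lung, so neither of these 2 was measured in both vehicle groups. Cyp1a2, not above background in vehicle lung, was at least 21.3-fold higher in liver, and Nqo1 was lower in liver than in forestomach (log2 difference -3.91). None was called with chrysene in any tissue. At an unadjusted limma p of at most 0.05, lung had 3, 2, 3 and 3 of 6 tested at D1, D2, D3 and for the trend. The shares of all probes were 5.88%, 6.12%, 16.2% and 17.3%. Liver had 0, 1, 0 and 0 of 6, against 3.61%, 3.79%, 4.79% and 5.43%. Forestomach had 0 of 6 throughout, against 4.16%, 7.53%, 9.24% and 9.18%. In lung at D3, Nqo1 was at 0.55 (adjusted p = 0.220) and Cyp1a1 at -0.998 (adjusted p = 0.127). Without mice 17 and 19 they were at 0.16 and -0.86. Ahrr, the feedback repressor of the receptor, was not above background on any of the 5 vehicle lung arrays, so no change is given for it.

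The split of these lists between tissues depended on the scaling. Under median centring the further aldehyde dehydrogenases were 6 higher and 0 lower for liver against lung, 7 and 1 for liver against forestomach, and 5 and 1 for lung against forestomach. In the same 3 comparisons the retinoic acid list then gave 1 higher and 5 lower, 3 and 2, and 8 and 2. Alcohol dehydrogenases and carbonyl reductases gave 1 and 3, 3 and 2, and 4 and 1. The folate genes gave 3 and 3, 5 and 0, and 4 and 0, and the AhR battery 0 and 3, 0 and 1, and 3 and 1. Cyp1a1 in forestomach, and Ahrr and Adh7 in lung, passed the filter through dosed arrays and were not above background in any vehicle mouse there. The direction of every difference between tissues printed above for a named gene of these lists held under median centring.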

How the data were processed

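Lung, liver and forestomach RNA of individual mice was hybridised on 2-colour Agilent arrays against a common reference with no dye swap. The authors deposited log2 ratios of Cy5 over Cy3 for 55681 probes, made by LOWESS on median signals without background subtraction. Each column correlated with a loess computed here from the same array at r = 0.977 to 0.998, with slopes of 0.952 to 0.996, which settled scale and direction, and the column medians were -0.046 to -0.020. The deposited scanner files gave spot and background intensity values and flags of 0 or 1 for signal above background, of which 3671 control spots were left out. Whether a direction could be affected by dye bias cannot be told without swaps.

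limma 3.58.1 in R 4.3.3 was fitted to the deposited log2 ratios of all probes well above background on at least 3 arrays of the tissue, with non-uniform spots dropped, in place of the MAANOVA of the study's methods, which was not run. Doses were fitted within each tissue, and tissues over all 56 arrays. P-values were adjusted over all probes by Benjamini-Hochberg, and exact permutation tests were two-sided. The fit was tested on simulated data. Bounds for probes not well above background were the smaller of the fold in the deposited ratios and the fold of Cy5 group means after loess and Aquantile. The tissues came from the same mice, so the animal numbers pair the samples. The consensus correlation by mouse was 0.026 and by slide 0.23.

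The 10 members and all lists were chosen with earlier results of these data known. By the rule for named genes, the members, their 2 most like genes and the listed pathway genes were eligible, the likeness of 1 member over all arrays is not reported here, and dosed mice of the other members are given by range, mean and plot. Alternatives were other normalizations (loess, normexp with offset 50, median centring), filters, probe averaging, slide, array column or mouse as a term, and leaving out each array. Gene positions are from RefSeq on GRCm38.p6.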

Additional observations from a re-analysis of the deposited data

Results flagged for a closer look

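In 4 of 110 groups of 4 or 5 mice, a single mouse stood away from its group by Dixon's criterion, against 5.5 groups expected at 1 in 20. Aldh1a1 in lung at D3 was 5.59 in mouse 19, against 6.24 to 6.50 in the other 4 mice. Aldh1b1 in liver at D2 was 4.70 in mouse 11, against 4.51 to 4.53 in the other mice. Aldh1l1 in forestomach at D3 was 3.78 in mouse 19, against 2.74 to 2.93 in the others, on an array of the brightest slide. Aldh3a2 in lung at D1 was 0.69 in mouse 9, against 0.89 to 0.95 in the others.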

How the results depend on the processing

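The counts of members called with chrysene stayed at 0 under every alternative run. At D0 the count for liver against lung was 7 (5 under median centring), that for liver against forestomach 8 (6 under median centring, 7 under normexp and with signal required on every array), and that for lung against forestomach 6 (5 for the 2 tissues alone, loess, no filter, normexp and signal on every array; 6 under median centring, of which 3 were the same genes, with 6 higher and 0 lower). Leaving out each array gave 7 to 7, 7 to 8 and 5 to 7. With the mouse as replicate block the D0 counts were again 7, 8 and 6, and the Aldh1a2 D3-effect difference had adjusted p = 0.741 for liver against lung and 0.349 for lung against forestomach; the block changed no call. Slide as a random block, the omission of lung mice 17 and 19 and that of the vehicle and D3 forestomach arrays with a glandular stomach list above 5 were chosen after seeing the data, and the slide block left the counts at 7, 8 and 6. Array column could not be run in lung.

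Signs turned as follows, and the cause was not tested. Median centring also moved the median of all probes, to -0.62, 0.17 and 0.95 for the 3 tissue comparisons in the order above. For D3 in lung, liver and forestomach that median was 0.11, -0.049 and 0.18. Relative to all probes, liver against lung was 0.28 for Aldh1a1 and 0.26 for Aldh3a2. Lung against forestomach was -0.89 for Aldh3a1, so these 3 kept their sign on that measure. Under median centring: Aldh1a1 forestomach D3 0.44, liver against lung -0.34 and lung D3 0.14; Aldh1a7 lung D3 0.18; Aldh1l1 forestomach D3 0.15, liver D3 -0.080 and lung against forestomach 0.96; Aldh2 forestomach D3 0.51; Aldh3a1 forestomach D3 0.56 and lung against forestomach 0.064; Aldh3a2 liver against lung -0.36 and lung against forestomach 1.46; Aldh3b1 forestomach D3 0.079, liver D3 -0.031 and liver against forestomach 0.48. Without lung mice 17 and 19, lung D3 was 0.060 for Aldh1a1, -0.13 for Aldh1a3 and -0.41 for Aldh3a1. With array column, forestomach D3 was -0.23 for Aldh1a7, 0.22 for Aldh2 and 0.52 for Aldh3b1. Under loess, Aldh1l1 liver D3 was -0.056, Aldh1a7 liver against lung 0.00046, and forestomach D3 0.030 for Aldh2 and 0.014 for Aldh3a1. Under normexp, liver D3 was 0.031 for Aldh1a7, -0.025 for Aldh1l1 and -0.058 for Aldh3b1, Aldh1a7 liver against lung was 0.010, and forestomach D3 was 0.034 for Aldh2 and 0.021 for Aldh3a1. With slide as a block, liver D3 was -0.0029 for Aldh1l1 and -0.037 for Aldh3b1, and over all its probes Aldh3a1 forestomach D3 was 0.15.

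Without the forestomach arrays of high glandular list the counts were 8 and 6 against liver and lung, and Aldh1a3 forestomach D3 was 0.39 and lung against forestomach 0.10, Aldh1a7 liver against forestomach -0.017, and Aldh3a2 forestomach D3 0.15 and lung against forestomach 0.49.

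Leaving out each array also turned signs. Over these omissions lung D3 ran from -0.22 to 0.067 for Aldh1a1, -0.0045 to 0.14 for Aldh1a3 and -0.10 to 0.13 for Aldh2. Liver D3 ran from -0.093 to 0.021 for Aldh1a7, -0.020 to 0.050 for Aldh1l1 and -0.074 to 0.11 for Aldh3b1. Forestomach D3 ran from -0.53 to 0.20 for Aldh1a3, -0.19 to 0.43 for Aldh1a7 and -0.27 to 0.15 for Aldh3a1. Between tissues, Aldh1a7 ran from -0.30 to 0.32 for liver and -0.23 to 0.39 for lung against forestomach, Aldh3a2 from -0.25 to 0.040 for lung and Aldh3b1 from -0.59 to 0.037 for liver against forestomach. Low signal limits Aldh1a2 and Aldh1a3 in liver, Aldh1a3 and Aldh3b1 in forestomach, and Aldh1b1 outside liver.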
